A study of Psychotria grandis and Psychotria costivenia and Psychotria revoluta with 6 samples.

Results

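Contigs unread in P. costivenia alone are transcripts of the Psychotria leaf reference to which no read of either P. costivenia plant was assigned, although all plants of the other species carried them. Members were selected on the raw counts: 0 counts in both P. costivenia libraries and at least 10 counts in each of the 4 P. grandis and P. revoluta libraries. The rule found 392 of the 45143 contigs of the series. A contig is a transcript put together from reads without a genome, so that 1 gene may be split over several contigs. Leaf mRNA was sequenced from wild plants of 3 Cuban shrub species on serpentine soil, 2 plants per species, with 1 library each. Both P. costivenia plants, nickel hyperaccumulators per the labels, came from La Coca on 12 June 2014. Both P. grandis plants, also labelled hyperaccumulators, came from Mil Cumbres on 27 June 2014. The P. revoluta plants, labelled non-accumulators, came from Mil Cumbres too, plant 1 on 27 July 2014 and plant 2 on 27 June 2014. No plant was treated or genetically altered, and all 6 were environmental leaf samples.

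Psychotria is a large genus of understorey shrubs in the coffee family. Nickel hyperaccumulators take up nickel from metal-rich soil, move it to the shoot, bind it to small ligands and store it in leaf vacuoles, as worked out mostly in other plant families. Species of a genus can differ in which genes they carry and transcribe, and also in the sequence of the genes they share. Reads of all species were counted on contigs of P. grandis, so a P. costivenia transcript that is missing and one whose sequence has diverged from the contig cannot be told apart. In whole leaves, fewer cells of a type and less RNA per cell cannot be told apart either. Species, locality and date of P. costivenia differed from the rest together. The files give each contig a running number with no gene name and no sequence, so no member could be assigned a function and the leaf label could not be checked against marker genes. The plants of a species are the replicates. The p-values set a difference between species against a spread between plants, estimated over all species in the fit.

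Library totals ran from 45676087 to 57907913 counts. P. grandis plant 1 stands apart from the other libraries, and results that rest on it are given with and without it. It had reads on 45142 of the 45143 contigs, against 35362 to 38589 in the other 5 libraries. The reference was assembled from reads of a single P. grandis plant, and its part in this difference was not tested. In both P. revoluta tables the header of the counts names another species than the labels do, and the labels were followed.

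All members stood at 0 counts in P. costivenia plant 1 and at 0 counts in plant 2. Since 0 observed counts are compatible with up to 3, the limit in CPM, the count scaled to a common library total, was 0.0642 CPM in plant 1, 0.0621 CPM in plant 2 and 0.0316 CPM over both plants. In P. grandis plant 1 the members ran from 0.198 to 2882 CPM with a median of 1.38 CPM. In P. grandis plant 2 they ran from 0.219 to 102.0 CPM with a median of 1.88 CPM. In P. revoluta plant 1 they ran from 0.173 to 130.3 CPM with a median of 1.77 CPM, and in P. revoluta plant 2 from 0.205 to 152 CPM with a median of 1.63 CPM. Most members thus had a low CPM, which was not scaled to the length of a contig. The median of the mean level over the 4 libraries was 1.88 CPM for the members, against 8.22 CPM for the 27412 other contigs that also had 10 counts in each of these libraries. Of the members, 114 had a mean under 1 CPM, 241 lay at 1 to 10 CPM and 37 reached 10 CPM or more.

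**Figure D1:**
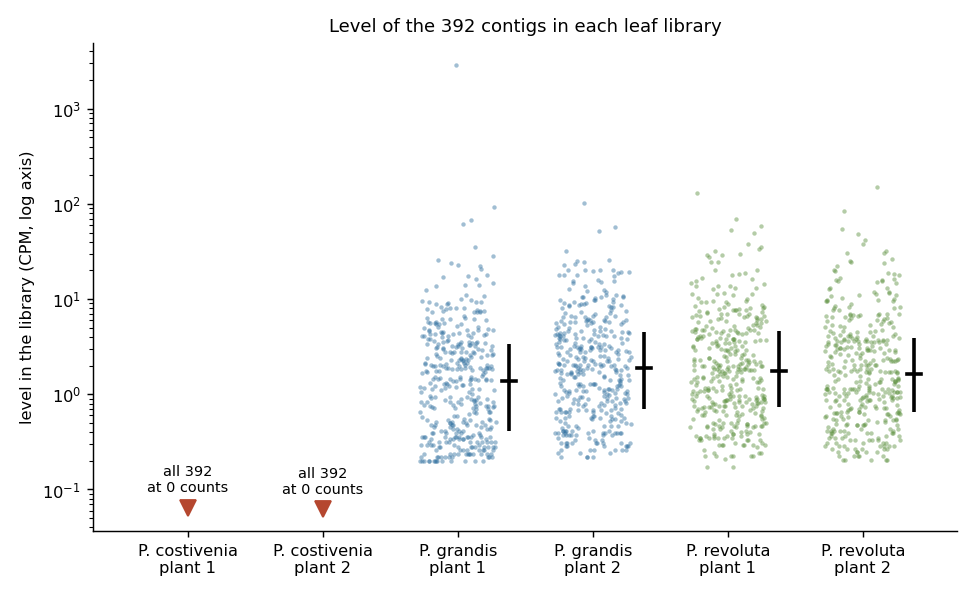
Level of each member (points, CPM on a log axis) in the 6 libraries, with the median and the quartiles beside each cloud; triangles mark the limit that 0 counts allow in the P. costivenia libraries. All 392 members stand at 0 counts in both P. costivenia plants, against medians of 1.38 to 1.88 CPM in the P. grandis and P. revoluta plants.

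Summed over the members, counts made up 0.420% of the library of P. grandis plant 1, 0.168% of that of P. grandis plant 2, and 0.183% and 0.176% of the P. revoluta libraries. The higher share in P. grandis plant 1 came from 1 contig, without which it was 0.132%. Apart from that contig, the members were a small fraction of the counts of P. grandis and P. revoluta, 0.132% to 0.183% of a library.

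With no reads on one side, the difference has only a lower bound, here the mean CPM of the 4 libraries over the limit of 0.0316 CPM in P. costivenia. These bounds describe the choice of the members and are not tested. They cover counting error in P. costivenia only, and the levels of the 4 other libraries were taken as exact. Copying error is not covered, because no molecular identifiers show which reads are copies of 1 molecule. The mean of the 4 libraries was at least 8.37-fold higher for the member with the smallest bound, and the median bound was 59.7-fold. A bound of at least 10-fold held for 386 members, of at least 100-fold for 138 and of at least 1000-fold for 5. When only the lowest of the 4 libraries was set against P. costivenia, the bounds ran from 5.47-fold to 1965-fold with a median of 18.8-fold. By this stricter measure 282 members passed 10-fold and 54 passed 100-fold.

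Pgra_v1_contig_16 carried the deepest contrast that held in every plant. It had 0 and 0 counts in P. costivenia, against 3134 and 4659 counts in P. grandis and 7543 and 7412 counts in P. revoluta. These counts corresponded to 62.0 and 102.0 CPM in P. grandis and to 130.3 and 152 CPM in P. revoluta. It was the one member with at least 1000 counts in each of the 4 libraries, and 7 members had at least 500. The mean of the 4 libraries, 111.5 CPM, was at least 3535-fold above P. costivenia, and the lowest single library at least 1965-fold.

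Pgra_v1_contig_70 had the highest mean of all members, and that mean rested on 1 plant. It had 0 and 0 counts in P. costivenia, against 145681 and 35 counts in P. grandis and 188 and 100 counts in P. revoluta. P. grandis plant 1 thus stood at 2882 CPM, P. grandis plant 2 at 0.766 CPM and the P. revoluta plants at 3.25 and 2.05 CPM. Its bound was at least 22882-fold over the 4 libraries and at least 64.1-fold without P. grandis plant 1.

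The minimum of 10 counts cut through a continuous range. Of the members, 24 had exactly 10 counts in their lowest library and 14 had 11. Just outside, 20 contigs without reads in P. costivenia had 9 counts in the lowest of the 4 libraries and 26 had 8. On the P. costivenia side of the rule, 145 contigs with 10 counts in each of the 4 libraries had a single read in P. costivenia, summed over both plants, and 141 had 2 reads. By raw count, P. grandis plant 1 was the lowest of the 4 libraries for 191 members and P. grandis plant 2 for 80. P. revoluta plant 1 was the lowest for 43 and P. revoluta plant 2 for 92, with ties counted in each. Raw counts are not scaled to library totals, of which that of P. revoluta plant 1 was the largest. The ranking was not made for the other contigs.

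Contigs with no read in P. costivenia were more frequent than contigs with any single low count. Among the 27804 contigs with at least 10 counts in each P. grandis and P. revoluta library, 392 (1.41%) had a summed P. costivenia count of 0. Each summed count between 3 and 25 was held by 86 to 121 contigs, with a mean of 103.1. The numbers thus changed little between 25 and 3 reads, were somewhat higher at 2 and 1, and were highest at 0. Among the 18809 contigs with at least 50 counts in each of the 4 libraries, 151 had 0 reads in P. costivenia, 54 had 1, 43 had 2, 24 had 3, 20 had 4 and 18 had 5.

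**Figure D2:**
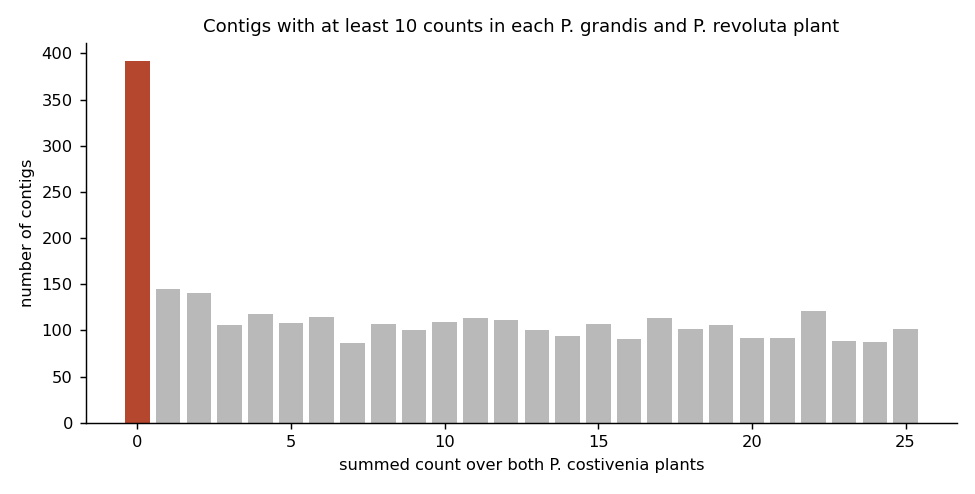
Number of contigs (vertical axis) by the summed count over both P. costivenia plants (horizontal axis, 0 to 25) among the contigs with at least 10 counts in each P. grandis and P. revoluta plant. The bar at 0 holds the 392 members, against 145 contigs at a count of 1 and 86 to 121 contigs at each count from 3 to 25.

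In all, 7585 contigs had no read in either P. costivenia plant, and the members were a small share of them. Of these contigs, 2049 reached 10 counts in none of the 4 other libraries, 4180 in 1, 819 in 2 and 145 in 3. The 145 contigs that missed in 1 library fell short in P. grandis plant 1 in 45 cases, in P. grandis plant 2 in 39, in P. revoluta plant 1 in 21 and in P. revoluta plant 2 in 40. The mirrored rule found 497 contigs unread in P. revoluta alone and 0 unread in P. grandis alone. The reference was built from P. grandis reads, so the last number is not comparable with the others.

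The lack of reads carried over only in part from one P. costivenia plant to the other. When contigs were chosen on P. costivenia plant 1 alone, with 0 counts there and at least 10 in each of the 4 other libraries, 704 qualified. Of these, 392 also had 0 counts in plant 2, which the choice did not use, a share of 55.7%. Among all contigs with 10 counts in the 4 libraries, 2.80% had 0 counts in P. costivenia plant 2. When contigs were chosen on plant 2 alone, 779 qualified, and 392 of them (50.3%) had 0 counts in plant 1, against 2.53% of all. These shares describe contigs of the same 2 plants, which are not independent of each other, and carry no interval. The members had lower levels than the other contigs, and the part of the level in these shares was not tested.

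Most of the contigs that were read in the other plant had few reads there. After the choice on plant 1, 111 contigs had 1 or 2 counts in plant 2 and 84 had 3 to 9 counts. A further 66 had 10 to 99 counts and 51 had 100 or more. After the choice on plant 2, the numbers in plant 1 were 155, 128, 77 and 27. In all, 117 contigs (16.6%) chosen on plant 1 and 104 contigs (13.4%) chosen on plant 2 had at least 10 counts in the other plant of the same species.

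**Figure D3:**
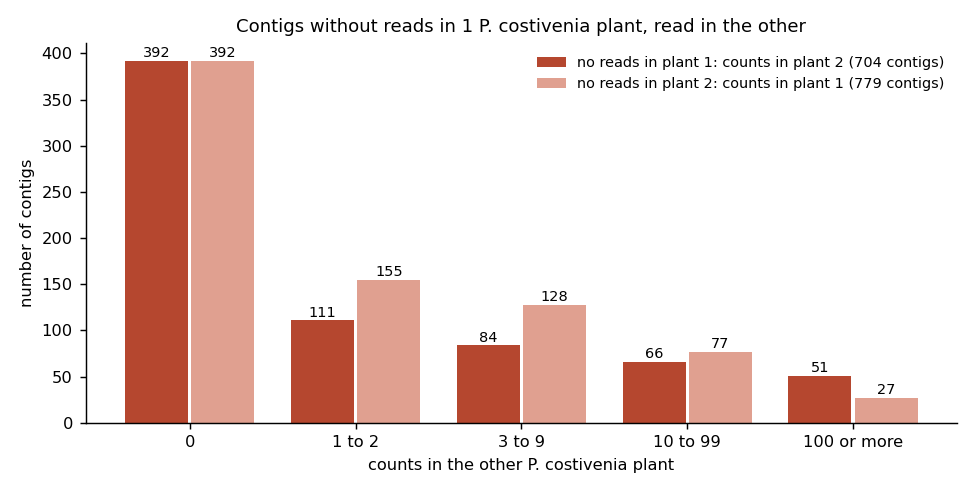
Number of contigs (vertical axis) by their count in the other P. costivenia plant (horizontal axis, 5 classes), for contigs without reads in plant 1 (dark bars, 704 contigs) and without reads in plant 2 (light bars, 779 contigs). The first pair of bars is the same 392 members, and 117 and 104 contigs had 10 or more counts in the other plant.

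The members became rarer with the level of a contig. Of the contigs with a mean under 0.5 CPM over the 4 libraries, 36 of 835 (4.31%) were members. The share was 3.37% at 0.5 to 1 CPM, 2.66% at 1 to 2 CPM, 2.00% at 2 to 5 CPM and 1.50% at 5 to 10 CPM. It was 0.391% at 10 to 50 CPM and 0.0734% above, where 3 of 4085 contigs were members. A weak contig reaches 0 counts after a smaller change than an abundant one, and the part of this in the trend was not tested.

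The running numbers of the contigs followed the same trend. Of the contigs numbered 1 to 5000, 27 of 4702 (0.574%) were members, against 34 of 1071 (3.17%) of those numbered 40001 to 45000. What the numbers follow is not given in the sources used here. They were related to level, with a Spearman correlation between number and mean CPM of -0.46 over the 392 members and of -0.69 over the 27412 other contigs, as a description across contigs of the same 4 libraries. The members were scattered along the numbers, from 16 to 44996, and 2 pairs of members carried consecutive numbers.

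**Figure D4:**
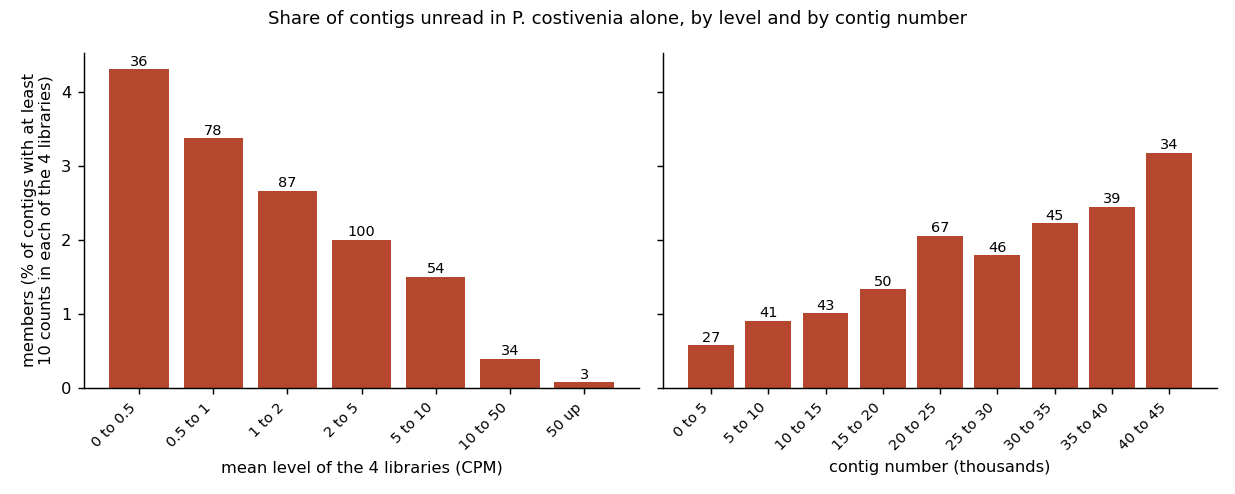
Share of members among contigs with at least 10 counts in each of the 4 P. grandis and P. revoluta libraries (vertical axis, percent), by mean level (left, CPM) and by contig number (right, labelled in units of 1000), with the number of members on each bar. The share falls from 4.31% under 0.5 CPM to 0.0734% above 50 CPM and is 0.574% in the first and 3.17% in the last number range shown.

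Whether the members also set P. grandis apart from P. revoluta was a question that the rule left untouched apart from its minimum of 10 counts. All 392 members passed the filter on low counts and were among the 35660 contigs tested. In edgeR's quasi-likelihood test 0 members passed an adjusted p of 0.05, with 0% of all tested contigs called, and limma-voom also called 0. The smallest adjusted p of a member was 0.0976. At an unadjusted p of at most 0.05, 30 members (7.65%) were higher and 7 (1.79%) lower in P. grandis, against 18.2% and 2.34% of all contigs tested and 11.7% and 2.79% of the 27412 other contigs with 10 counts in each of the 4 libraries. By limma-voom at the same unadjusted threshold, 41 members (10.5%) were higher and 43 (11.0%) lower, against 14.2% and 5.82% of all contigs tested and 9.48% and 6.81% of those other contigs. By edgeR without P. grandis plant 1, 28 members (7.14%) were higher and 26 (6.63%) lower, against 13.9% and 4.31% of all contigs tested and 10.3% and 5.02% of those other contigs. By edgeR over all 6 libraries, more members were thus higher than lower in P. grandis, as among those other contigs, whose shares were larger in both directions. By limma-voom the members were not more often higher than lower. DESeq2 called 21 members higher (5.36%) and 5 lower (1.28%) in P. grandis, against 14.0% and 1.45% of all tested. Contigs with no or few reads in P. revoluta are among all contigs tested and could not be members. Among those 27412 other contigs, the share called by DESeq2 was 8.52% higher and 1.77% lower. Without P. grandis plant 1, edgeR called 2 members higher and 0 lower in P. grandis, with 1.40% of all tested contigs called higher and 0.0531% lower. Without plant 2 it called 41 members higher (10.5%) and 54 lower (13.8%), with 19.2% of all tested contigs called higher and 18.3% lower. The shares in that fit were 17.0% higher and 25.5% lower among the other contigs with 10 counts in each of the 4 libraries. Each of these fits left P. grandis with 1 plant, which was assumed to vary like the other species.

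Between P. grandis and P. revoluta, the members had a median log2 fold change of -0.19, with quartiles of -0.81 and 0.92. It was 0.13 over all contigs tested and -0.10 over the other contigs with 10 counts in the 4 libraries. The mean CPM of 223 members (56.9%) differed by less than 2-fold between these species, against 65.3% of the other contigs. It was at least 2-fold higher in P. grandis for 87 members and at least 2-fold lower for 82, a split that was not computed for the other contigs. Both P. grandis plants lay above both P. revoluta plants for 98 members (25%) and below both for 121 (30.9%), and the species overlapped for 173. Among all contigs tested, 33.3% lay above and 26.9% below without overlap. These shares of the members were near those of the other contigs with 10 counts in the 4 libraries, 27.4% and 31.7%.

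Single members differed widely between P. grandis and P. revoluta. Pgra_v1_contig_999 had 0 and 0 CPM in P. costivenia, 91.7 and 20.3 CPM in P. grandis and 0.328 and 0.738 CPM in P. revoluta. Its log2 fold change in P. grandis against P. revoluta was 6.83 (SE 1.17, adjusted p = 0.102 by edgeR). Both P. grandis plants stood far above both P. revoluta plants, but the difference did not pass the test. The log2 fold change of Pgra_v1_contig_999 was 5.19 without P. grandis plant 1 and 7.45 without plant 2. Each of these fits left 1 P. grandis plant.

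Pgra_v1_contig_3211 had 0 and 0 CPM in P. costivenia, 23.9 and 15.7 CPM in P. grandis and 0.345 and 0.266 CPM in P. revoluta. Its log2 fold change in P. grandis against P. revoluta was 6.08 (SE 0.64, adjusted p = 0.0976 by edgeR). The P. grandis plants were close to each other here, and again well above P. revoluta. In P. revoluta, Pgra_v1_contig_3211 had 20 and 13 counts and Pgra_v1_contig_999 had 19 and 36. These counts were not far above the minimum of the rule, so that a much lower level in P. revoluta would have kept both contigs out. The log2 fold change of Pgra_v1_contig_3211 was 5.62 without P. grandis plant 1 and 6.32 without plant 2, again with 1 P. grandis plant left. DESeq2 called both contigs, with adjusted p of 2.49e-08 for Pgra_v1_contig_999 and 1.26e-15 for Pgra_v1_contig_3211. In all, 10 members (2.55%) had both P. grandis plants at least 4-fold above both P. revoluta plants. The same held for 4.43% of the tested contigs with reads in all 4 libraries and for 2.06% of the other contigs with 10 counts in each of them.

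In the opposite direction, Pgra_v1_contig_35562 had 0 and 0 CPM in P. costivenia, 0.356 and 0.394 CPM in P. grandis and 8.95 and 3.81 CPM in P. revoluta. Its log2 fold change in P. grandis against P. revoluta was -4.02 (SE 0.75, adjusted p = 0.110 by edgeR). Pgra_v1_contig_44688 had 0 and 0 CPM in P. costivenia, 0.356 and 0.241 CPM in P. grandis and 4.33 and 3.91 CPM in P. revoluta. Its log2 fold change in P. grandis against P. revoluta was -3.70 (SE 0.68, adjusted p = 0.108 by edgeR). In P. grandis these contigs had 11 to 18 counts, close to the minimum of the rule, so that a lower level in P. grandis would have kept them out. They were the 2 members (0.51%) with both P. grandis plants at least 4-fold below both P. revoluta plants, against 0.216% of the tested contigs with reads in all 4 libraries and 0.157% of the other contigs with 10 counts in each of them. With 1 P. grandis plant left in the fit, the log2 fold change of Pgra_v1_contig_35562 was -4.05 without plant 1 and -4.08 without plant 2. That of Pgra_v1_contig_44688 was -4.13 without plant 1 and -3.48 without plant 2. DESeq2 called both, with adjusted p of 4.67e-05 for Pgra_v1_contig_35562 and 0.000127 for Pgra_v1_contig_44688.

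The plants of P. grandis differed far more over the members than those of P. revoluta did. The median absolute log2 ratio between plants was 1.07 in P. grandis and 0.34 in P. revoluta. At least 4-fold differences between plants were found for 91 members (23.2%) in P. grandis, 20 with plant 1 higher and 71 with plant 2 higher, and for 3 members (0.765%) in P. revoluta. The other contigs with 10 counts in the 4 libraries gave 21.1% and 0.843%, near the shares of the members. By direction in P. grandis, plant 1 was at least 4-fold higher for 5.02% of them and plant 2 for 16.1%. These shares were 5.10% and 18.1% among the members.

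Pgra_v1_contig_44674 had the largest excess of P. grandis plant 2 over plant 1. It had 0 and 0 counts in P. costivenia, 12 and 2349 counts in P. grandis and 225 and 52 counts in P. revoluta. P. grandis plant 2 thus stood at 51.4 CPM, 216.7 times the 0.237 CPM of plant 1, and the P. revoluta plants stood at 3.89 and 1.07 CPM, between the P. grandis plants. The largest excess of plant 1 over plant 2 was that of Pgra_v1_contig_70 above, 3761 times. The direction between species turned with the plant for both. The log2 fold change of P. grandis against P. revoluta was 3.34 for Pgra_v1_contig_44674 and -3.28 without P. grandis plant 2. For Pgra_v1_contig_70 it was 9.25 and -1.83 without P. grandis plant 1.

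P. grandis plant 1 was the library that most often stood alone. It lay at least 4-fold below all 3 other libraries for 53 members (13.5%) and at least 4-fold above them for 12 (3.06%). The other contigs had 13.2% below and 4.03% above in P. grandis plant 1, near the shares of the members. P. grandis plant 2 lay 4-fold below for 1 member (0.255%) and above for 4 (1.02%), against 0.0547% and 0.186% of the other contigs. Each P. revoluta plant did so for 0 members, against 0.208% of the other contigs for plant 1 and 0.131% for plant 2. The median level of the 53 members was 0.317 CPM in plant 1 of P. grandis and 5.43 CPM in plant 2, against 6.61 and 6.58 CPM in P. revoluta. These contigs were picked for their low value in P. grandis plant 1, so the contrast is a description. Over P. grandis plant 2 and both P. revoluta plants, 200 members (51.0%) stayed within a 2-fold range, against 72.6% of the other contigs. Over all 4 libraries 69 members (17.6%) did, against 29.4% of the other contigs. The highest of the 4 libraries was at least 4-fold above the lowest for 45.2% of the members and 38.04% of the other contigs. The other contigs had higher levels, and the part of the level in these differences was not tested.

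Across the 392 members, levels in P. grandis plant 2 followed those in P. revoluta more closely than those in P. grandis plant 1. The Pearson correlation of log2(CPM + 1) was 0.775 and 0.786 between P. grandis plant 2 and either P. revoluta plant, 0.485 between the P. grandis plants and 0.956 between the P. revoluta plants. For P. grandis plant 1 and either P. revoluta plant it was 0.288 and 0.278. Over the 27412 other contigs the values were higher throughout, 0.943 and 0.951 for P. grandis plant 2 with P. revoluta, 0.714 and 0.720 for P. grandis plant 1 with P. revoluta, 0.806 between the P. grandis plants and 0.984 between the P. revoluta plants. These are descriptions across contigs of shared libraries, and the other contigs span a wider range of levels, whose part in the higher values was not tested.

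**Figure D5:**
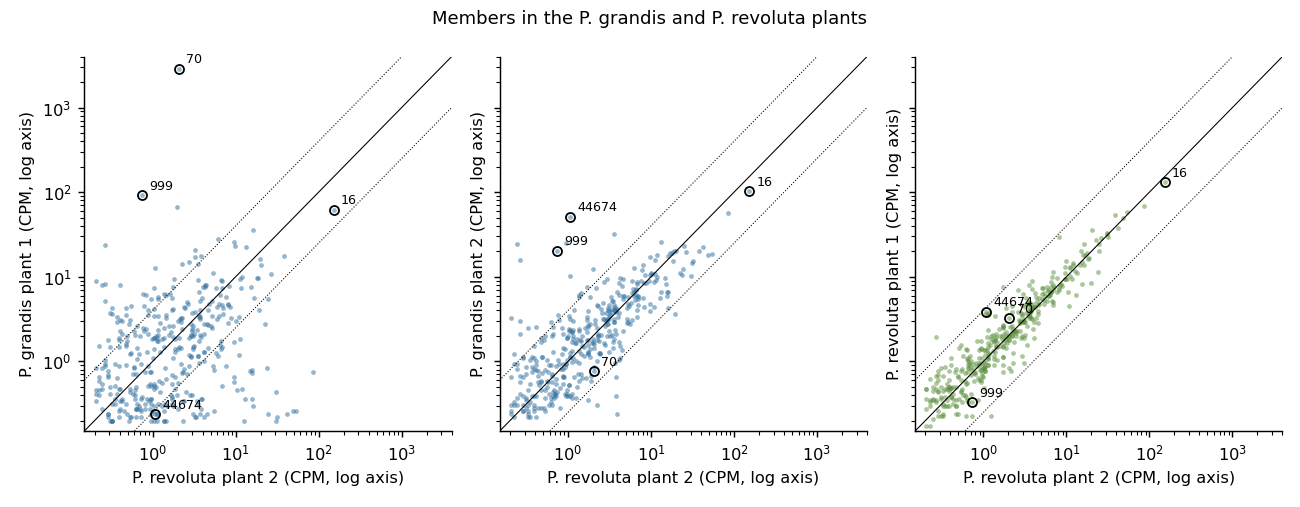
Level of each member (CPM, log axes) in P. grandis plant 1 (left), P. grandis plant 2 (middle) and P. revoluta plant 1 (right), each against P. revoluta plant 2; the solid line marks equal levels, dotted lines mark a 4-fold difference, and 4 members named in the text are circled with their numbers. The points scatter least between the P. revoluta plants (r = 0.956) and most for P. grandis plant 1 (r = 0.278). Here r is the Pearson correlation of log2(CPM + 1), whereas the axes show CPM without the added 1.

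The test of P. costivenia against each other species used the counts that chose the members, so its calls only describe how far 2 plants per species carry such a contrast. Against P. revoluta, edgeR called 351 of the 392 members lower in P. costivenia (89.5%), with 6.80% of all tested contigs called in this direction. Against P. grandis it called 177 (45.2%), with 1.83% of all tested called in this direction. DESeq2 called all 392 in both comparisons, with 17.0% of all tested contigs called lower in P. costivenia against P. revoluta and 13.3% against P. grandis. The comparisons share the P. costivenia plants. In edgeR, 0 members passed in either comparison when a P. costivenia plant or a P. revoluta plant was left out, whichever of the 4 it was, which left 1 plant in that species. In these fits 0% of all contigs tested, members or not, were called lower in P. costivenia. Without P. grandis plant 1 or plant 2, 352 and 345 members were called against P. grandis, with 13.1% of all tested contigs called in either fit. Against P. revoluta, 390 members were called without P. grandis plant 1, with 23.3% of all tested, and 379 without plant 2, with 20.4% of all tested.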

How the data were processed

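The authors deposited 1 table per plant, which holds raw counts by contig according to the file headers. The series design text names paired-end sequencing and a reference assembled from reads of a single P. grandis plant. Per the labels' protocols, stranded polyA libraries were made from DNase-treated RNA of leaves kept in RNAlater. The tools for assembly, alignment and counting, the handling of reads with several matches and the strand setting were not given in the sources used here. Counts of contigs that resemble or overlap each other are therefore uncertain.

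CPM were computed from library totals. Counts were tested in R 4.3.3 with edgeR 4.0.16: filterByExpr with species as group (minimum count 10, minimum total 15), TMM scaling, 1 robust quasi-likelihood model with species as factor over all 6 libraries, two-sided contrasts, Benjamini-Hochberg adjustment over all 35660 contigs tested and a threshold of 0.05. The SE is the absolute log2 fold change over the square root of F. Alternatives were DESeq2 1.42.0, limma-voom (limma 3.58.1), library totals, no filter, the 4 libraries of the species compared, a replicate block, each library left out, and other thresholds of the rule.

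The members, the rule for named contigs and the tests were chosen with earlier results of these data known. Named contigs were the 2 members with the highest mean CPM over the 4 P. grandis and P. revoluta libraries, the 2 with the largest log2 fold change in each direction between these species among members without overlap, and the largest and smallest ratio of P. grandis plant 1 over plant 2. No gene list could be applied, since the contigs carry no names. No libraries held identical values.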

Additional observations from a re-analysis of the deposited data

How the results depend on the processing

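The number of members moved with the threshold, from 392 to 240 with at least 20 counts, 151 with at least 50 and 150 with at least 1 CPM in each of the 4 libraries, and from 413 to 779 with 1 library left out of the rule, the high values being those without a P. costivenia plant. It was 549 with at least 5 counts and 557 with up to 1 count in each P. costivenia plant. The smallest bound was 4.11-fold to 8.38-fold and the median bound 29.3-fold to 63.0-fold with 1 library left out, the lower values following from a single P. costivenia library behind the limit. The median bound was 49.7-fold under TMM and 49.8-fold under DESeq2 size factors, which raise the limit in P. costivenia. The share of contigs lacking reads in the other P. costivenia plant was 59.7% and 55.7% with at least 50 counts. For P. grandis against P. revoluta, DESeq2 called 26 members (15.4% of all tested contigs) and edgeR 0 to 95 with 1 library left out (0% to 37.5% of all tested). The median log2 fold change stayed between -0.42 and -0.10 in all fits. Of 84 refits of the 7 named contigs, 70 kept direction and side of the threshold, 12 passed it, and 2 turned. With 1 library left out, the log2 fold change ran from -3.28 (without P. grandis plant 2) to 4.52 for Pgra_v1_contig_44674 and from -1.83 (without P. grandis plant 1) to 10.14 for Pgra_v1_contig_70. Against P. revoluta, edgeR called 0 to 390 members lower in P. costivenia with 1 library left out (0% to 23.3% of all tested). Against P. grandis it called 0 to 352 with 1 library left out (0% to 13.1% of all tested) and 0 in the 4 libraries of these species, where 0 of 33803 contigs passed, and DESeq2 called 392 (13.3% of all tested); the cause was not tested. Scaling by library totals shifted all contigs of P. costivenia against P. revoluta, to a median of -0.29 on the log2 scale.

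The plant numbers of the labels do not mark a shared collection day, and whether they mark a shared batch is not given. Deviations of same-numbered plants correlated across contigs at 0.108 for P. grandis with P. costivenia, -0.254 for P. grandis with P. revoluta and -0.013 for P. costivenia with P. revoluta. With the number as a replicate block, 44 members (335 of all 35660 contigs tested) were called lower in P. costivenia against P. revoluta, 0 (0 of all) against P. grandis, and 0 (0 of all) between P. grandis and P. revoluta.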

Other observations

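Some contigs were unread in 1 P. costivenia plant and abundant in the other, so that they lie outside the members by 1 plant. The contigs with the highest counts of this kind were named after their values were seen. Pgra_v1_contig_1816 had 10344 and 0 counts in P. costivenia plants 1 and 2, against 8247 and 5426 counts in P. grandis and 21890 and 21470 counts in P. revoluta. Pgra_v1_contig_389 had 0 and 4928 counts in P. costivenia plants 1 and 2, against 699 and 18 counts in P. grandis and 82 and 20 counts in P. revoluta. Both contigs were read in all 4 plants of the other species, the first at a high level in each, the second with more reads in P. costivenia plant 2 than in any of them.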
